A study of Mus musculus with 17 samples.

Results

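The miRNAs miR-143 and miR-145 were followed in small RNA libraries of the mouse embryonic stem cell (ESC) lines D3 and B8 during differentiation. Their entries were chosen by name, as every row for miR-143, miR-145a or miR-145b and either arm of the hairpin. This gave 3 of the 1033 miRNAs analysed: mmu-miR-143-3p, mmu-miR-145a-5p and mmu-miR-145a-3p, written below without the species prefix. At day 0 the cells were ESCs, which are pluripotent, kept on LIF (a cytokine that holds back differentiation) in feeder-free culture. By day 7 they had been aggregated by hanging drop into embryoid bodies, and by day 21 these had grown out. Both later groups had been moved to a medium with retinoic acid, insulin, transferrin, selenium and N2 in place of LIF. D3 gave 3 libraries on day 0, 2 on day 7 (replicates 2 and 3) and 3 on day 21, and B8 gave 3 on day 7 and 3 on day 0, 14 in all. B8 at day 21 was not analysed here. The labels name no genotype or strain beyond the line, and each library is a whole culture, so a larger share of cells that hold a miRNA and a higher level per cell cannot be told apart. Whether replicates were separate cultures is not stated in the labels, and the p-values therefore describe only how these libraries spread, which may be technical.

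miR-143 and miR-145 are cut from hairpins that lie close together and are transcribed as a single primary RNA. They are among the best known miRNAs of smooth muscle, where the serum response factor and its partner myocardin switch them on, and they are also abundant in fibroblasts and other mesenchymal cells. In smooth muscle they favour the contractile state, in part by repressing the Krüppel-like factors Klf4 and Klf5. In human ESCs miR-145 represses the pluripotency factors OCT4, SOX2 and KLF4.

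The comparison turned on miRNAs of mesenchymal cells and on those whose profile came nearest to the members, so their mature sequences are shown with the seed, bases 2 to 8 that pair with target RNAs, in capitals (RefSeq, GRCm38.p6, 5′ to 3′). miR-199a-3p and miR-199b-3p, miRNAs of mesenchyme, have the same mature sequence, so their values are uncertain one by one:
miR-199a-3p: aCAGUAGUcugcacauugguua
miR-199b-3p: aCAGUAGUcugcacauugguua
miR-214-3p: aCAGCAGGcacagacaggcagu
Of the nearest profiles, miR-98-5p, let-7d-5p and let-7f-5p share the seed of the let-7 family, miRNAs that mature once pluripotency is lost, while miR-146a-5p, a brake on inflammatory signalling, has another:
miR-98-5p: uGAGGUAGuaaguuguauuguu
let-7d-5p: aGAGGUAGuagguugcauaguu
let-7f-5p: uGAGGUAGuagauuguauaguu
miR-146a-5p: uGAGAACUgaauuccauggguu

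In the GRCm38 annotation (GENCODE release M21) Mir143 occupies bases 61649196 to 61649258 of chromosome 18 and Mir145a bases 61647825 to 61647894, both on the minus strand and 1301 bases apart. The long noncoding RNA gene Carmn, on the same strand at 61649625 to 61665537, ends 366 bases upstream of Mir143.

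The libraries held 56377 to 1060306 miRNA reads each, fewest in D3 at day 0 (up to 129486) and most in D3 at day 7 (1008438 or more). The deposited values are reads divided by a factor for each library. These factors are not those of TMM, the normalization named for the table, over the miRNAs analysed here: the highest column total was 17.7 times the lowest as deposited and would be 2.69 times under TMM. How they were set is not known, so a deposited fold carries that factor. On this scale most miRNAs shifted together: the median log2 change over the 521 miRNAs tested was 2.25 from day 0 to day 7 in D3. Changes are therefore given on the deposited scale and on a relative scale, on which each library was divided by its median ratio to the geometric mean of all libraries and the median change was 0.27. Tests are those of limma, a linear model fitted across all miRNAs, with p-values adjusted over the miRNAs tested and a threshold of 0.05. Levels are given per 1000000 of the miRNA signal of a library. Summed miR-290 and miR-302 miRNAs, markers of pluripotent cells, stood at 178566 to 223700 per 1000000 in D3 ESCs and 230243 to 257735 in B8 ESCs. By day 7 their sum was 6087 to 6202 in D3 and 50091 to 94808 in B8, and in D3 outgrowths 11877.5 to 13258.

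miR-143-3p, by far the most abundant member, rose throughout differentiation of D3 and fell in that of B8. In D3 it stood at 1795, 1730 and 2164 per 1000000 in the day 0 libraries, at 3230 and 4084 at day 7, and at 22488.5, 30359 and 28968 at day 21. In B8 the levels were 1767, 2646 and 1375 at day 7, against 10589.6, 12234 and 11987 at day 0. The days did not overlap within either line. The highest levels were those of the D3 outgrowths, where miR-143-3p made up 2.73% ± 0.42 (SD, n = 3) of the miRNA signal and ranked 7 to 10 among all miRNAs, against ranks 60 to 64 in D3 at day 0. The next highest were those of undifferentiated B8, with 1.16% ± 0.0887 (SD, n = 3) and ranks 16 to 18. In that order followed D3 at day 7 (0.366% ± 0.0603, SD, n = 2), B8 at day 7 (0.193% ± 0.0651, SD, n = 3) and D3 at day 0 (0.19% ± 0.0234, SD, n = 3). The ranges of the last 2 groups overlapped as shares, but not as deposited values (268 to 380 in B8 embryoid bodies, 102 to 121 in D3 ESCs) or on the relative scale (323 to 490 and 212.2 to 267). D3 at day 7 lay above undifferentiated B8 as deposited, with 2682 to 2947 against 1434 to 1807, and below it on the relative scale, with 1139 to 1257 against 1546 to 1780.

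miR-145a-5p, the strand of the miR-145a hairpin that acts as its main mature miRNA, had far fewer reads and followed the same order of days. In D3 it had 2, 2 and 0 reads at day 0, 31 and 24 at day 7, and 139, 201 and 177 at day 21. In B8 it had 4, 11 and 1 reads at day 7, against 31, 25 and 12 at day 0. Per 1000000 of the signal this was 10.6 ± 9.23 in D3 at day 0 (SD, n = 3), 26.5 ± 3.85 at day 7 (SD, n = 2) and 258 ± 11.2 at day 21 (SD, n = 3). B8 had 22.3 ± 18.5 at day 7 and 99.5 ± 12.96 at day 0 (SD, n = 3 each). The ranges of D3 at day 0, D3 at day 7 and B8 at day 7 are 0 to 16.5, 23.8 to 29.2 and 7.05 to 42.9. Those of B8 at day 7 overlap with both of the others. On this scale the outgrowths and undifferentiated B8 stand above these, and apart from each other. As deposited, D3 at day 7 had 17.2 to 24.3 and undifferentiated B8 10.4 to 17.3, ranges that overlap, with the higher mean in D3 (20.7 against 14.1).

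miR-145a-3p, the other strand of that hairpin, was close to the limit of detection. It had no read in any D3 library at day 0, 4 and 8 reads at day 7, and 23, 53 and 38 at day 21. In B8 it had 1, 1 and 0 reads at day 7, against 2, 10 and 4 at day 0. A count of 0 allows up to 3 reads per library, which in D3 at day 0 averages 1.89 on the deposited scale. All 3 members passed the filter on low values, a mean of 5 per 1000000. With 18.8 per 1000000 over all libraries and 8.70 without D3 at day 21, miR-145a-3p stood nearest to it.

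**Figure D1:**
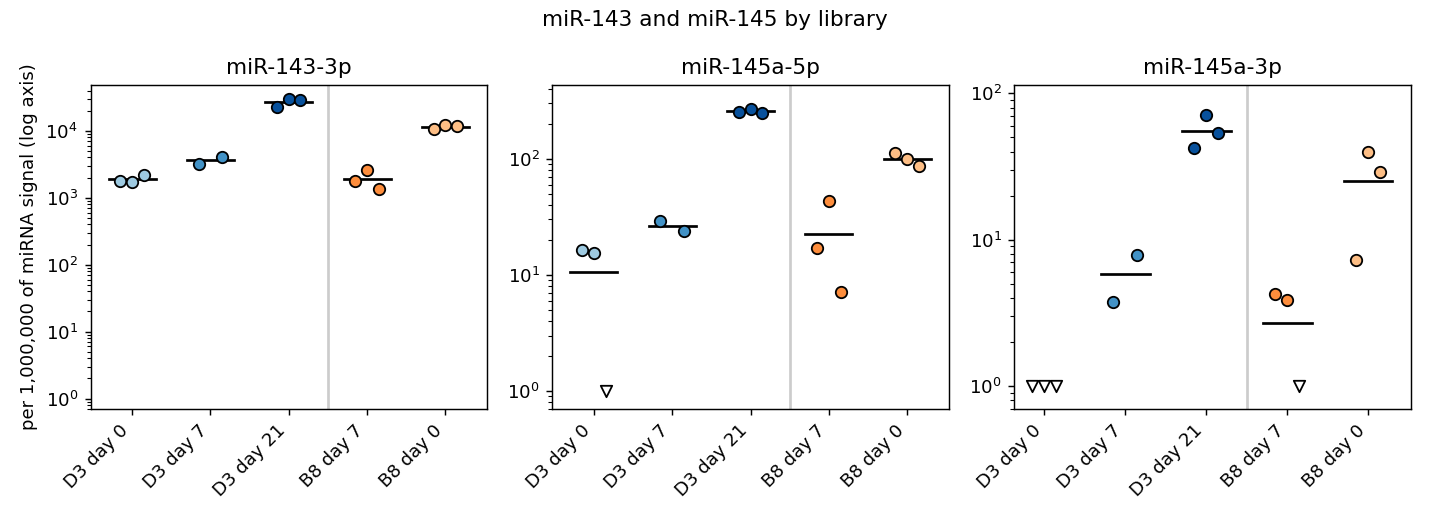
Level of each member in every library, per 1000000 of the miRNA signal of the library on a log axis, with bars at the group means and open triangles for libraries with no read (drawn at 1). miR-143-3p was at 22488.5 to 30359 in the D3 outgrowths, against 1730 to 2164 in D3 ESCs, and at 1375 to 2646 in B8 embryoid bodies, against 10589.6 to 12234 in B8 ESCs.

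In D3 outgrowths at day 21 all 3 members were higher than in D3 ESCs, where 65.3% of the miRNAs tested were called higher as deposited and 38.2% on the relative scale. miR-143-3p rose 54.1-fold (log2 change 5.76 ± 0.24 SE, limma adjusted p = 6.44e-17) and 18.3-fold on the relative scale (log2 4.19 ± 0.19 SE, limma adjusted p = 2.2e-12). The median log2 change of all miRNAs in this comparison was 1.69 as deposited and 0.41 on the relative scale. miR-145a-5p rose as well (limma adjusted p = 7.33e-11 as deposited and 8.49e-07 on the relative scale). Its 517 pooled reads at day 21 against 4 at day 0 gave a ratio of 72.3 as deposited, with a 95% counting interval of 28.1 to 266, and of 25.5 (9.90 to 93.9) on the relative scale. miR-145a-3p was at least 6.77-fold higher than the floor of 3 reads per library as deposited and at least 2.13-fold higher on the relative scale (limma adjusted p = 6.34e-08 and 5.3e-06).

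From day 0 to day 7 in D3, miR-143-3p rose 25.1-fold as deposited (log2 4.65 ± 0.27 SE, limma adjusted p = 7.85e-14). It rose 5.11-fold on the relative scale (log2 2.35 ± 0.21 SE, limma adjusted p = 3.18e-08) and 1.92-fold when all libraries were scaled to equal totals (limma adjusted p = 0.0022). This comparison shares its day 0 libraries with that of day 21, and 70.4% of miRNAs were called higher as deposited, 36.1% on the relative scale and 21.1% with equal totals. The 55 reads of miR-145a-5p at day 7 against 4 at day 0 gave a ratio of 25.6 (counting interval 9.47 to 97.5) as deposited and 5.43 (2.0 to 20.6) on the relative scale (limma adjusted p = 9.09e-08 and 0.00136). With equal totals it did not pass (limma adjusted p = 0.0652). For miR-145a-3p the level at day 7 was at least 2.34-fold above the floor of day 0 as deposited. On the relative scale its day 7 level lay below that floor, so no fold is given there, although the fitted change passed the test (limma adjusted p = 5.34e-05 as deposited and 0.00572 on the relative scale, and 0.0661 on that scale without D3 day 7 replicate 3).

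From embryoid bodies to outgrowths of D3, miR-143-3p rose, where 8.06% of the miRNAs tested were called higher as deposited and 16.5% on the relative scale. It averaged 27272 ± 4201 per 1000000 at day 21 (SD, n = 3), against 3657 ± 603 at day 7 (SD, n = 2). Its rise was 2.16-fold as deposited (log2 1.11 ± 0.27 SE, limma adjusted p = 0.00225) and 3.58-fold on the relative scale (log2 1.84 ± 0.21 SE, limma adjusted p = 4.92e-06), against median log2 changes of −0.60 and 0.01 over all miRNAs. With equal totals it was 7.44-fold, where 38% were called higher. miR-145a-5p had 139 to 201 reads at day 21 and 24 and 31 reads at day 7, a log2 change of 1.48 ± 0.54 SE (limma adjusted p = 0.0301). This call was lost without D3 day 7 replicate 2 or 3 (limma adjusted p = 0.0762 and 0.204) and without D3 day 21 replicate 2 or 3 (0.0709 and 0.0956). miR-145a-3p did not pass as deposited (log2 1.42 ± 0.64 SE, limma adjusted p = 0.0801). On the relative scale both strands of miR-145a passed with all libraries (limma adjusted p = 0.0169 and 0.0282), but these calls too rest on single libraries. The 5p call was lost there without D3 day 7 replicate 2 or 3 (limma adjusted p = 0.0634 and 0.130) or D3 day 21 replicate 3 (0.0508). The 3p call was lost without D3 day 7 replicate 2 or 3 (limma adjusted p = 0.226 and 0.0800) or D3 day 21 replicate 2 or 3 (0.1025 and 0.0856).

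In B8 the first 7 days went the other way. All 3 members were lower in B8 embryoid bodies than in B8 ESCs, where 28% of miRNAs were called lower as deposited and 25.9% on the relative scale. miR-143-3p fell 5.02-fold as deposited (log2 −2.33 ± 0.24 SE, limma adjusted p = 1.5e-08) and 4.28-fold on the relative scale (log2 −2.10 ± 0.19 SE, limma adjusted p = 5.65e-08). miR-145a-5p fell as well, with a pooled read ratio of 0.289 (counting interval 0.157 to 0.504) as deposited (log2 −2.01 ± 0.48 SE, limma adjusted p = 0.00101; relative log2 −1.81 ± 0.57 SE, 0.0125). This call was lost on the relative scale without B8 day 7 replicate 3 (limma adjusted p = 0.0672). miR-145a-3p fell too (limma adjusted p = 0.00487 as deposited, 0.00991 on the relative scale and 0.0577 there without B8 day 0 replicate 2). With 2 pooled reads at day 7 against 16 at day 0, its ratio was 0.154 with a counting interval of 0.0171 to 0.654 as deposited. Summed blood miRNAs were lower beside them, at 211.5 to 304 per 1000000 in B8 embryoid bodies and 3049 to 3230 in B8 ESCs, and 3 of 5 tested fell on both scales. Of 6 epithelial miRNAs 4 fell as deposited and 3 on the relative scale, and 1 of 2 endothelial miRNAs fell on both. Of 12 miRNAs of pluripotent cells 11 fell on each scale. Their median log2 changes were −1.58 and −1.39, beside −0.21 and −0.04 over all miRNAs. Where 21.9% and 26.9% of all miRNAs were called higher, 4 of 6 neural miRNAs and 1 of 4 striated muscle miRNAs rose on both. The part of any of these lists in the fall of the members was not tested.

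Whether D3 and B8 changed differently over the first 7 days was tested with an interaction term. It was 6.98 ± 0.36 SE (log2, D3 minus B8) for miR-143-3p and 6.34 ± 0.72 for miR-145a-5p as deposited (limma adjusted p = 6.56e-14 and 4.86e-08), where 71.8% of miRNAs were called higher. With 20.7% called higher on the relative scale, the differences there were 4.45 ± 0.28 and 4.50 ± 0.85 (limma adjusted p = 3.04e-09 and 0.000527). The miR-145a-5p value rests on 4 reads in D3 at day 0. miR-145a-3p passed on both scales (limma adjusted p = 6.44e-06 and 0.00114), but with no read in D3 at day 0 the size of its difference is set by the pseudocount or prior and was not measured.

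**Figure D2:**
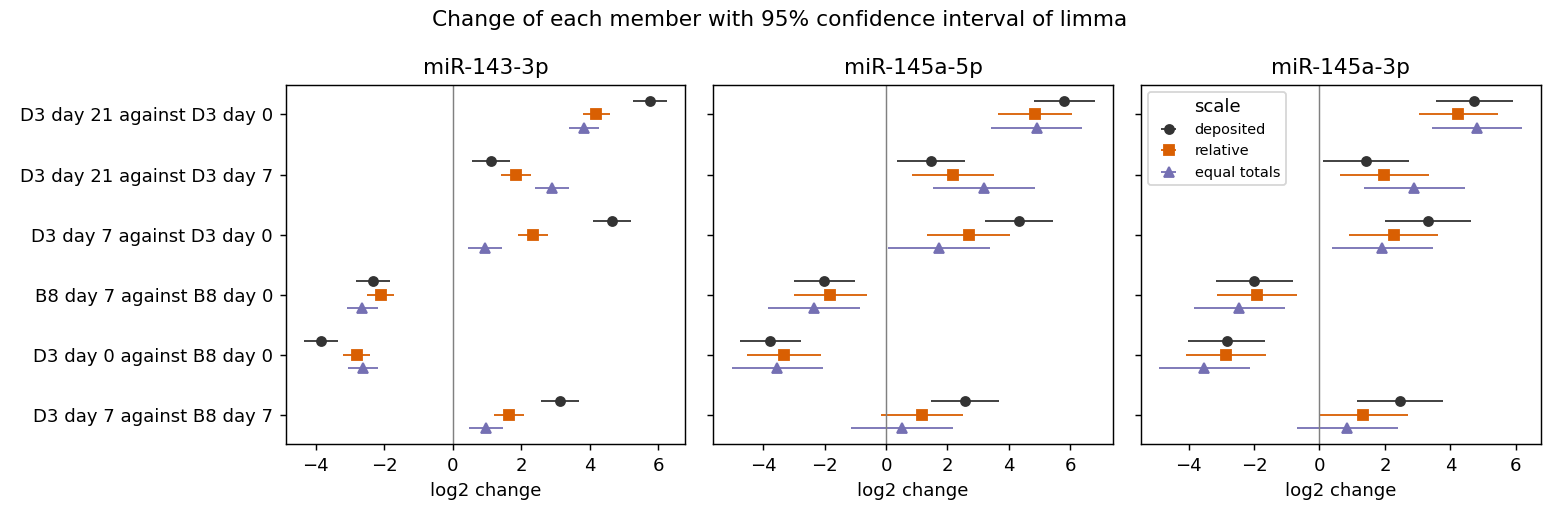
Log2 change of each member in 6 comparisons on 3 scales, with the 95% confidence interval of the limma fit as horizontal lines. All 3 members lie right of 0 in the D3 time comparisons. They lie left of 0 for B8 day 7 against day 0 and for D3 against B8 at day 0. For D3 against B8 at day 7 the intervals of both miR-145a strands include 0 on the relative scale and with equal totals. Points of both miR-145a strands against D3 at day 0 depend on the pseudocount.

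The undifferentiated lines differed in the level of the cluster. All 3 members were lower in D3 ESCs than in B8 ESCs, where 46.1% of miRNAs were called lower as deposited and 15.9% on the relative scale. miR-143-3p averaged 1896 ± 234 per 1000000 in D3 and 11604 ± 887 in B8 (SD, n = 3 each). It was 14.4-fold lower as deposited (log2 −3.85 ± 0.24 SE, limma adjusted p = 1.23e-12) and 6.96-fold lower on the relative scale (log2 −2.80 ± 0.19 SE, limma adjusted p = 2.87e-09). miR-145a-5p had 4 pooled reads in D3 and 68 in B8, a ratio of 0.055 (counting interval 0.0146 to 0.147) as deposited and 0.111 (0.0293 to 0.297) on the relative scale (limma adjusted p = 6.06e-07 and 0.000217). miR-145a-3p had 0 reads in D3 and 16 in B8, at least 1.84-fold lower than in B8 as deposited. On the relative scale its B8 level lay below the D3 floor and no fold is given (limma adjusted p = 0.000221 and 0.00122).

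Of the lists of markers, those of mesenchyme, the growth state of smooth muscle, blood and epithelium were lower in D3 ESCs as well. Those of striated muscle, endothelium and neural cells were not on the relative scale. Of all miRNAs 46.1% were called lower as deposited and 15.9% on the relative scale. Of 8 miRNAs of the growth state of smooth muscle, 7 were lower as deposited and 5 on the relative scale (median log2 −1.73 and −0.68). Among 12 miRNAs of pluripotent cells 11 were lower as deposited and 3 on the relative scale. The 10 mesenchyme miRNAs with a row summed to 181 to 390 per 1000000 in D3 ESCs and 4919 to 6517 in B8 ESCs. Of the 8 tested, 7 were lower in D3 as deposited and 6 on the relative scale, with medians of −5.01 and −4.51 beside −0.90 and −0.11 over all miRNAs. miR-199a-3p stood at 92.3 ± 44.1 per 1000000 in D3 and 2439 ± 303 in B8, and miR-214-3p, processed from the same transcript as one of the miR-199a hairpins, at 0 in every D3 library and 166 ± 25.2 in B8 (SD, n = 3 each). The 8 blood miRNAs summed to 734 to 816 in D3 and 3049 to 3230 in B8, and of 5 tested 3 were lower in D3 as deposited and 2 on the relative scale. The 6 epithelial miRNAs summed to 3908 to 4168 in D3 and 6906 to 8201 in B8, and all 6 were lower in D3 as deposited and 5 on the relative scale. None of 4 striated muscle miRNAs passed on either scale. Of 2 endothelial miRNAs 1 was lower as deposited and none passed on the relative scale, and of 6 neural miRNAs 2 were lower as deposited and 1 was higher on the relative scale. The labels state culture without feeder cells for both lines, and the part of other cells in the difference was not tested.

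In embryoid bodies the order of the lines was reversed for miR-143-3p. It averaged 3657 ± 603 per 1000000 in D3 (SD, n = 2) and 1929 ± 651 in B8 (SD, n = 3) and was 8.74-fold higher in D3 as deposited (log2 3.13 ± 0.27 SE, limma adjusted p = 1.25e-09). It was 3.15-fold higher on the relative scale (log2 1.65 ± 0.21 SE, limma adjusted p = 6.08e-06) and 1.95-fold with equal totals (limma adjusted p = 0.00424), where 66%, 24.8% and 7.87% of miRNAs were called higher in that order of scales. Both strands of miR-145a were higher as deposited (limma adjusted p = 0.000177 for 5p and 0.00136 for 3p). On the relative scale they did not pass, with log2 1.17 ± 0.63 SE for 5p (95% interval −0.17 to 2.51) and 1.34 ± 0.64 SE for 3p (−0.03 to 2.70; limma adjusted p = 0.161 and 0.115). Markers of other cells differed beside them: 8 of 8 mesenchyme miRNAs were higher in D3 as deposited and 7 on the relative scale (median log2 1.56, beside 0.37 over all miRNAs), and both endothelial miRNAs on both scales (relative median 3.16). Of 6 neural miRNAs 6 were higher as deposited and 2 on the relative scale, and of 4 striated muscle miRNAs 3 and none. Of 8 miRNAs of the growth state of smooth muscle, 7 were higher as deposited and 2 on the relative scale. Their relative median was log2 0.368, beside 0.367 over all miRNAs. Of all miRNAs 9.21% were called lower in D3 as deposited and 16.7% on the relative scale. Among epithelial miRNAs 1 of 6 was lower as deposited and 6 of 6 on the relative scale, as were 3 of 5 blood miRNAs on both. Their part in the difference was not tested.

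Reads of miR-143-3p per read of miR-145a-5p numbered 61.7 to 195 in the 13 libraries that had a read of miR-145a-5p, while miR-143-3p itself ranged over 1375 to 30359 per 1000000. This ratio is taken within a library and so does not depend on its scaling factor, but it is a ratio of reads and ligation or counting can favour either miRNA. It was 109 and 112 in the D3 day 0 libraries with a read of miR-145a-5p, 110 and 172 in D3 at day 7, and 88.5, 112 and 116 in D3 at day 21. In B8 it was 104, 61.7 and 195 at day 7, against 94.0, 123 and 138 at day 0. The ranges of all 5 groups overlapped, and the widest was that of B8 at day 7, which rested on 16 reads of miR-145a-5p.

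The pooled reads gave 141 reads of miR-143-3p per read of miR-145a-5p in D3 at day 0 (exact 95% interval 54.8 to 519), 137 (105 to 182) at day 7 and 107 (98.3 to 117) at day 21. B8 had 80.6 (49.5 to 141) at day 7 and 113 (88.8 to 145.2) at day 0. These intervals hold counting error alone, because PCR copies of a molecule are not independent reads. Differences in the mean log2 ratio between groups ran from −0.39 (D3 day 21 against day 7) to 0.35 (D3 day 7 against B8 day 7). None of 6 comparisons passed an exact 2-sided permutation test, with p from 0.6 to 1 and adjusted p of 1 in each, in a design whose smallest p is 0.1 for 3 against 3 libraries and 0.2 or 0.333 for fewer. Such tests do not show that the ratio was equal.

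The strands of miR-145a were compared in the same way. Pooled reads of miR-145a-5p per read of miR-145a-3p numbered 4.58 (2.43 to 9.40) in D3 at day 7 and 4.54 (3.70 to 5.60) at day 21, while B8 embryoid bodies had 8 (1.88 to 71.7) and B8 ESCs 4.25 (2.44 to 7.85). Single libraries ran from 2.5 to 15.5, both of them at day 0 of B8, where the 3p strand had 10 and 2 reads. In D3 at day 0 the ratio could not be formed. None of the 3 comparisons with values in at least 2 libraries a group passed (exact permutation p = 0.667 to 1, smallest possible 0.2 or 0.333).

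**Figure D3:**
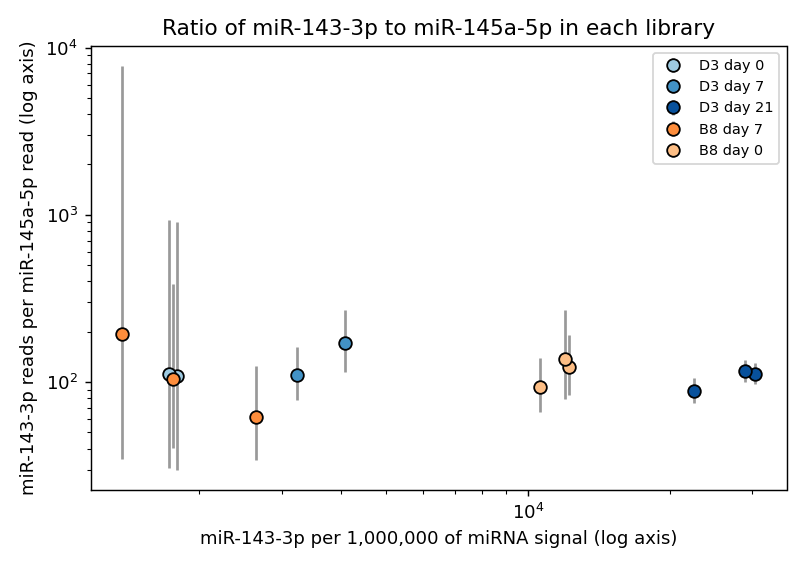
Reads of miR-143-3p per read of miR-145a-5p in each library, on a log axis, against the level of miR-143-3p, also on a log axis, with vertical lines for the exact 95% counting interval. The 13 libraries with a read of miR-145a-5p lie between 61.7 and 195, and those of the D3 outgrowths between 88.5 and 116.

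The profile of each member over the 5 groups was compared with those of 259 other miRNAs of at least median level, as the root mean square difference of group means on the relative log2 scale after centring. miR-143-3p differed by 0.28 from miR-145a-5p, against a median of 1.65 for the other miRNAs. The D3 day 0 value of miR-145a-5p rests on 4 pooled reads and depends in part on the pseudocount, and so do its likenesses. For miR-145a-3p no likeness is given, since its D3 day 0 value, at no reads, is set by the pseudocount. The nearest others to miR-143-3p were miR-98-5p (0.57), miR-146a-5p (0.64), let-7f-5p (0.68), let-7d-5p (0.75) and miR-34c-5p (0.84), a miRNA of the p53 response. For miR-145a-5p they were miR-98-5p (0.42), let-7d-5p (0.53), miR-146a-5p (0.54), let-7f-5p (0.55) and let-7d-3p (0.68). Of these 6, miR-98-5p and miR-34c-5p also fell in B8 from day 0 to day 7 on both scales, by 0.81 ± 0.30 SE and 1.87 ± 0.27 SE (log2) as deposited (limma adjusted p = 0.0246 and 2e-06). let-7d-5p, let-7f-5p and miR-146a-5p did not pass there (limma adjusted p = 0.0611, 0.397 and 0.0887), and let-7d-3p had a log2 change of 0.03 (limma adjusted p = 0.95). These likenesses describe 5 group means and were not tested.

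miRNAs known from mesenchyme and from the growth state of smooth muscle were set beside the members. In D3 outgrowths against ESCs 8 of 8 mesenchyme miRNAs tested rose on both scales, with median log2 changes of 8.003 and 7.14 beside 1.69 and 0.41 over all miRNAs. Counts from this list, here and above, are not of independent miRNAs. miR-199a-3p and miR-199b-3p have the same sequence, and miR-199a entered with both arms. miR-199a-3p stood at 16497 ± 2225 per 1000000 in the outgrowths and 92.3 ± 44.1 in ESCs (SD, n = 3 each). From embryoid bodies to outgrowths none of the 8 rose as deposited and 2 did on the relative scale, where 8.06% and 16.5% of all miRNAs were called higher. Those 2 were miR-199a-3p and miR-199b-3p, which have the same sequence. miR-214-3p fell as deposited, where 31.5% of miRNAs were called lower (log2 −1.30, limma adjusted p = 0.00236). In B8 from day 0 to day 7, where all 3 members fell, 2 of the 8 rose and none fell as deposited, and 3 rose on the relative scale, where 21.9% and 26.9% of all miRNAs were called higher. There miR-199a-3p was at 2835 ± 2037 per 1000000 at day 7 and 2439 ± 303 at day 0 (limma adjusted p = 0.434), and miR-214-3p rose (log2 2.30, limma adjusted p = 2.5e-07). The difference of the members from this list was not tested.

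The 8 miRNAs of the smooth muscle phenotype list act on growth, migration and repair in smooth muscle. In D3 outgrowths against ESCs 7 rose as deposited, where 65.3% of all miRNAs did. On the relative scale 5 rose, where 38.2% did, and 1 fell, where 25.5% did. The medians were 2.71 and 1.17 (log2), beside 1.69 and 0.41 over all miRNAs. miR-21a-5p, a miRNA of proliferating and injured vessels, rose by log2 3.44 as deposited and 1.88 on the relative scale (limma adjusted p = 4.53e-11 and 1.2e-06). miR-26a-5p rose by log2 4.204 and 2.64, miR-221-3p by 2.80 and 1.24, and miR-146a-5p by 6.49 and 5.14. In B8 from day 0 to day 7, 4 of the 8 fell as deposited and none rose, and on the relative scale 4 fell and 1 rose, where 28% and 25.9% of all miRNAs fell. miR-21a-5p was among those that fell on both scales, with 1767 ± 817 per 1000000 at day 7 and 10124 ± 759 at day 0 (SD, n = 3 each; log2 −2.31, limma adjusted p = 1.62e-07). In D3 from day 0 to day 7 miR-21a-5p rose as deposited (log2 2.04, limma adjusted p = 2.12e-06), whereas relative to the median its log2 change was −0.26 (limma adjusted p = 0.409). Of the 8 listed, 6 rose there as deposited, where 70.4% of all miRNAs did. On the relative scale 2 rose and 2 fell, where 36.1% rose and 27.1% fell. From embryoid bodies to outgrowths of D3, 2 of the 8 rose as deposited and 5 on the relative scale, where 8.06% and 16.5% of all miRNAs did.

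Lists of other cell types moved in both directions between D3 outgrowths and D3 ESCs, where 65.3% of all miRNAs were called higher as deposited and 38.2% on the relative scale. Called lower were 10.2% of all miRNAs as deposited and 25.5% on the relative scale. Summed striated muscle miRNAs stood at 1294 to 3513 per 1000000 there, against 0 to 16.5 in D3 ESCs, and all 4 that were tested rose on both scales. The filter on low values used the mean over all libraries, outgrowths included, so that count is not independent of the filter. Of the 8 listed 4 passed, and miR-208b-3p averaged 1059 per 1000000 in outgrowths and 3.62 to 5.49 in the other groups. Among the blood miRNAs below, miR-223-3p averaged 24.1 in outgrowths and 0 to 2.60 in the other groups. A filter without the outgrowths was not tested for these lists. Both endothelial miR-126a strands rose against day 0 on both scales, at a sum of 2325 to 3721 in outgrowths and 905 to 1058 in ESCs. Summed neural miRNAs were at 6862 to 8086 in outgrowths and 774 to 904 in ESCs, and 6 of 6 tested rose as deposited and 4 on the relative scale. Summed blood miRNAs stood at 163 to 195 in outgrowths and 734 to 816 in ESCs, and of 5 tested 3 rose and 1 fell as deposited, while 1 rose and 2 fell on the relative scale. Epithelial miRNAs summed to 4374 to 5696 in outgrowths and 3908 to 4168 in ESCs, and of 6 tested 5 rose as deposited, while 1 rose and 2 fell on the relative scale. The part of any of these cells in the level of the members was not tested.

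**Figure D4:**
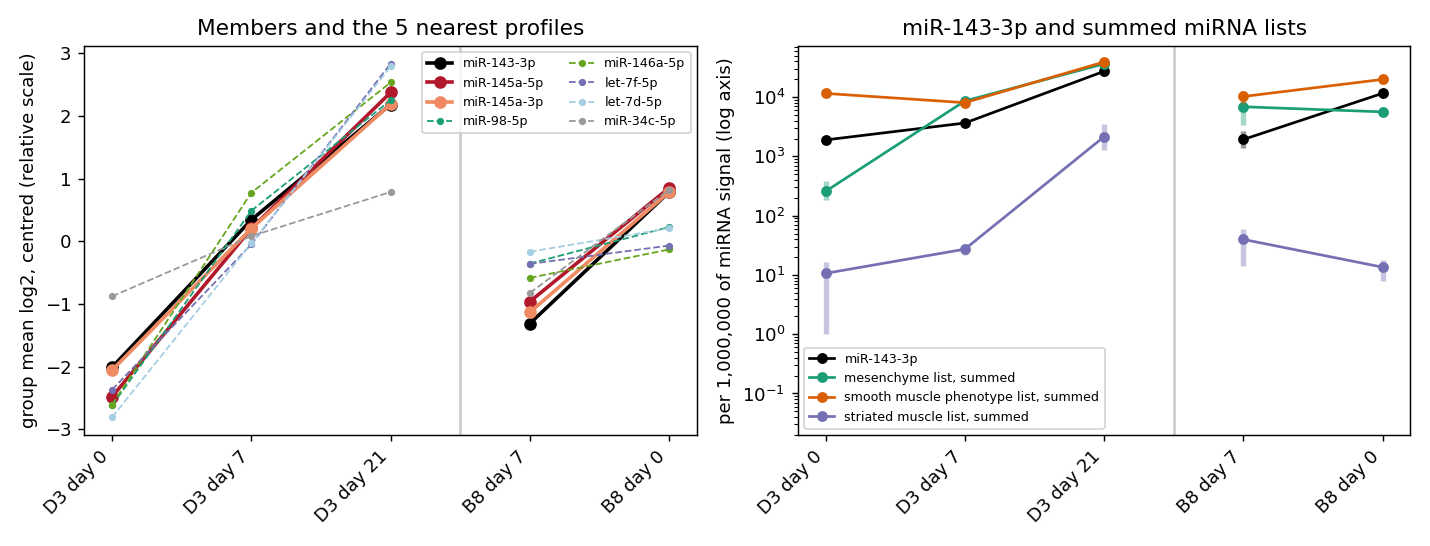
Left, centred group means (relative log2 scale) of the 3 members and of the 5 miRNAs nearest to miR-143-3p, and right, the level of miR-143-3p and the summed levels of 3 lists per 1000000 of the miRNA signal on a log axis, with points at group means and bars over the range of libraries (values of 0 drawn at 1). In B8 miR-143-3p was at 1929 at day 7 and 11604 at day 0, while the mesenchyme list was at 6881 and 5636. The D3 day 0 point of miR-145a-3p is set by the pseudocount, and that of miR-145a-5p depends on it in part.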

How the data were processed

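Small RNA was measured in 14 libraries of 5 groups, and 17 samples are labelled. The deposited table holds signal, which, per the file headers and values, the authors made by scaling the reads of each mature miRNA with one factor per library; the table's title names TMM, but the factors differ from TMM over the miRNAs analysed, and the rows and library sizes behind them are not given in the sources used here. CASAVA, FastQC, Bowtie, Partek and mm10 are named in the submitters' processing notes, and rules for reads that match several miRNAs are not given in the sources used here. Reads were recovered from the steps of the low values: 100% of values up to 1000 reads were whole within 0.01 of a read. Of 1033 miRNAs, 521 whose mean reached 5 per 1000000 of the signal were tested.

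Values were taken as log2(value + 0.48), a scale that understates changes of low miRNAs. Group means were fitted with limma 3.58.1 (R 4.3.3; trended prior, 9 residual degrees of freedom) over all 14 libraries, with Benjamini-Hochberg adjustment over all miRNAs tested and a threshold of 0.05. The code was tested on simulated data. The relative scale used median ratios over the 319 miRNAs above 0 in every library, and the equal-totals scale gave each library the same sum. Ratios within libraries were compared by exact permutation (scipy 1.17.1). The floor for a count of 0 was 3 reads per library, and intervals are at 95%. edgeR 4.0.16 (quasi-likelihood) was run on the recovered reads as an alternative chosen after seeing the data. The members, lists and tests were chosen with earlier results of these data known. Named miRNAs were all members, up to 4 of the highest in the mesenchyme and smooth muscle lists and 2 in the others among those that passed on both scales in D3 day 21 against day 0, and the 5 nearest profiles of miR-143-3p and of miR-145a-5p.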

Additional observations from a re-analysis of the deposited data

Results flagged for a closer look

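The change of each member from day 0 to day 7 differed between the lines, by the interaction term of the limma fit. The difference, D3 minus B8 on the log2 scale, was 6.98 for miR-143-3p, 6.34 for miR-145a-5p and 5.30 for miR-145a-3p as deposited, beside a median of 2.64 over all miRNAs. On the relative scale it was 4.45 for miR-143-3p and 4.50 for miR-145a-5p, beside a median of 0.49. The miR-145a-5p value rests on 4 reads in D3 at day 0: as deposited it was 4.43 at a pseudocount of 10 per 1000000 and 6.37 in edgeR on the recovered reads. The miR-145a-3p value is not a measured size, since that miRNA had no read in D3 at day 0: it was 2.45 at a pseudocount of 10 per 1000000 and 8.58 in edgeR on the recovered reads.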

How the results depend on the processing

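Of 441 values of the 21 member results under other settings, 426 kept their direction and their side of the threshold, 10 lost the call, 5 gained it and none changed direction. Many of these settings cannot move the log2 change: leaving out a library of a group not compared, dropping the filter, or fitting the compared groups alone. Only the p-value can move there, so these counts say little about how stable the changes are. Between D3 day 21 and day 7, miR-145a-5p was at 1.48 (log2, limma adjusted p = 0.0706) with no filter on low values and at 1.23 to 1.72 with single libraries left out. There miR-145a-3p passed at a pseudocount of 10 per 1000000 (1.13), on the relative scale (1.98), with equal totals (2.90), with the compared groups alone (1.42) and in edgeR (1.501). With equal totals miR-145a-5p was at 1.72 between D3 day 7 and day 0 (limma adjusted p = 0.0652). Between D3 and B8 at day 7, miR-145a-5p was at 1.17 on the relative scale and 0.52 with equal totals, and miR-145a-3p at 1.34 and 0.85, and neither passed. The log2 ratio of miR-143-3p to miR-145a-5p in D3 at day 0 was 6.75 with the pseudocount added to both values, against 6.79 without. The cause of these shifts was not tested, beyond the other scaling factors themselves. Replicates of the same number hardly deviated together from their group means (correlations of −0.088 to 0.112), which does not show how they were collected. A fit with a replicate block changed 0 calls. With it miR-145a-3p was at 1.57 between D3 day 21 and day 7 (limma adjusted p = 0.0636).

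Counts of miRNAs called moved with scale. Against 245, 392 and 387 as deposited for D3 against B8 at day 0, at day 7 and for the difference between lines, the relative scale called 123, 216 and 173 and equal totals 113, 163 and 159. Without D3 day 7 replicate 2 the count for D3 day 21 against day 7 was 116, against 206. Depth limits both strands of miR-145a in D3 at day 0 and in B8 at day 7, and B8 at day 21 was not analysed here.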
